A study of Homo sapiens with 9 samples.

Results

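The MYC, MAX and MXD network is a set of transcription factors that pair with one another to switch growth genes on or off. RNA-Seq of PC3 xenografts was examined for 10 of its genes, chosen by name with earlier results of these data known, so that their p-values are not independent of the choice: MYC, MYCN, MYCL, MAX, MXD1, MXD3, MXD4, MNT, MLX and MGA. All 10 were found among the 16204 protein-coding genes listed, and 9 passed the filter on low counts. Xenografts came from male NSG mice, an immunodeficient strain that still has mouse stroma and blood vessels. PC3 is an androgen-insensitive line from a metastasis of prostate cancer, and its cells were placed under the skin of mice aged 11 weeks. Vehicle (PBS), P-DXd or T-DXd was given every week by retro-orbital injection from a tumor volume of 90 mm3 for 5 cycles, with each conjugate at 5 mg/kg, as the series record states it. For the experiment at this dose, the methods of the study give another age, starting volume and cycle number. The antibody of P-DXd (patritumab deruxtecan) binds HER3 and that of T-DXd (trastuzumab deruxtecan) binds HER2, and their shared payload, deruxtecan, inhibits topoisomerase I. Each group had 3 libraries from separate xenografts, so the data ask how the network stood in tumors that remained after treatment. The title of each treated sample names 1 conjugate and its treatment field the other. The deposited count columns carry the same conjugate as the titles. Groups here follow the titles, as P-DXd-titled or T-DXd-titled, and which conjugate each received cannot be told apart with certainty from these labels. Both comparisons with vehicle use the same PBS libraries.

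MYC proteins bind DNA only as pairs with MAX, at a short motif called the E-box, where they recruit histone acetylases and raise transcription of genes for ribosome production, nucleotide synthesis, metabolism and cell division. MXD proteins and MNT compete for MAX and bring SIN3 and NCOR corepressors to the same motif. MLX pairs with MNT, with some MXD proteins and with the glucose-sensing factors MLXIP (MondoA) and MLXIPL (ChREBP), and MGA joins MAX to a Polycomb complex, PRC1.6, that silences germline genes.

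The E-box is shown first because it is the site that all these pairs share. The letters CACGTG, which read the same on both strands, were searched in RefSeq promoter windows of GRCh38.p14, from 250 bases before to 50 after each start. Windows were found for 9 members (for MYC, none), and 3 of the 9 held the motif: MXD4, MNT and MLX. Over all 27305 genes with a window, a larger set than the 16204 genes listed here, 8.77% held it. The 3 sites are printed 5′ to 3′ in the direction of transcription with the motif in capitals, since they place an E-box next to genes of the network itself. The MXD4 site is at chr4:2262315-2262359 on the minus strand, the MNT site at chr17:2401221-2401280 on the minus strand, and the MLX site at chr17:42567023-42567082 on the plus strand.
MXD4: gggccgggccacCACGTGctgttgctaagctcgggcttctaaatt
MNT: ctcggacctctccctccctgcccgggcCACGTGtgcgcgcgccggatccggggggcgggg
MLX: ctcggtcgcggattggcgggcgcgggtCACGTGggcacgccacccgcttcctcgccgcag
The motif begins 238 bases before the start in MXD4, 193 in MNT and 50 in MLX. A match is a description of the letters and not evidence of binding.

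Levels are given as CPM, edgeR's count of a gene relative to its scaled library size, as mean ± SD with n = 3. A gene was called changed at a Benjamini-Hochberg adjusted p at or below 0.05 in edgeR's quasi-likelihood test and a fold change of at least 1.5. Total counts ranged from 54481702 to 125538606, with all PBS libraries deeper than all treated ones. PBS replicate 1 stood apart: its log2 profile had a Pearson r across genes of 0.968 to 0.975 with the other PBS libraries, which had 0.991 with each other, so results are also given without it. Of 5 genes that mark PC3 cells (the epithelial KRT8, KRT18, KRT19 and EPCAM, and VIM, a mesenchymal gene), summed levels were 1662 to 2437 CPM in PBS and 3229 to 3775 CPM in treated libraries; KRT8 and KRT18 were called higher, and VIM had a log2 fold change of 0.03 (adjusted p 0.796). CTNNA1, an adhesion gene known to be lost in PC3 cells, was listed at mean levels of 14.8, 22.2 and 24.7 CPM in PBS, P-DXd-titled and T-DXd-titled libraries. With both conjugates it was called higher (log2 fold change 0.64, adjusted p 0.0142). What part host reads had in the levels of the network members was not tested. Summed levels of 10 skeletal muscle genes were 12.8 to 62.7 CPM in PBS, 113 to 298 CPM in 5 treated libraries and 4377 CPM in P-DXd-titled replicate 2.

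In residual tumors, MYC and MXD3 fell and MYCL rose in both comparisons with PBS, and MXD4 rose with all 6 treated libraries set against PBS. MAX was slightly higher and MGA lower, both by less than the 1.5-fold minimum, and MNT and MXD1 did not pass the test. In P-DXd-titled xenografts, 3 of the 9 members tested were called, 1 higher and 2 lower, where 25% of all genes were called. In T-DXd-titled xenografts, the count was also 3, where 28.6% of all genes were called. With all 6 treated libraries, 4 members were called, 2 higher and 2 lower, where 32.2% of all genes were called, so these shares lie near the background. Leaving out PBS replicate 1 gave counts of 3, 3 and 3. Leaving out P-DXd-titled replicate 2, the library with the most muscle RNA, gave log2 fold changes in that comparison of -0.96 for MYC, 1.65 for MYCL, -1.29 for MXD3 and 0.76 for MXD4.

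**Figure D1:**
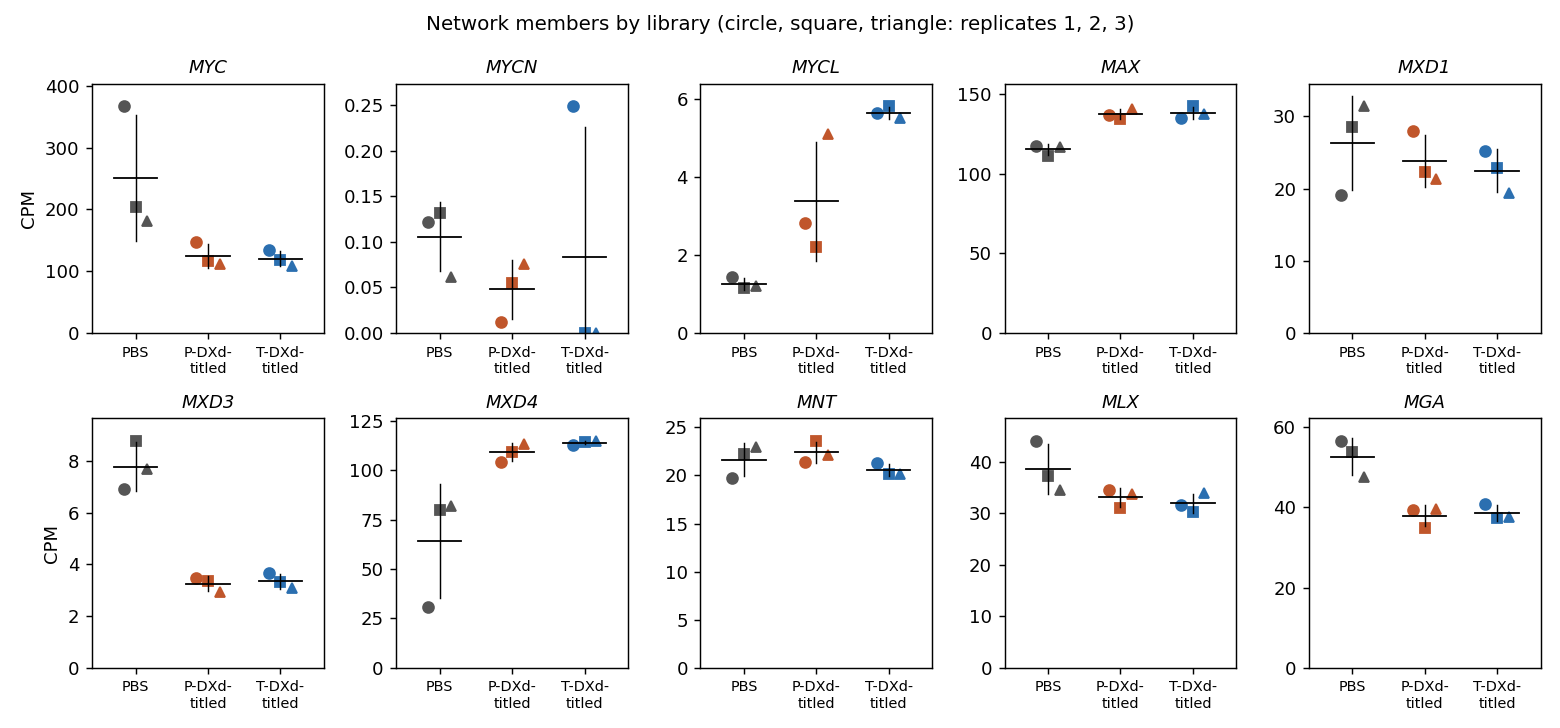
CPM of the 10 members (y axis, from 0, a scale per gene) in the 3 groups (x axis), with 1 point per library, bars at the mean and vertical lines of 1 SD. All 6 treated libraries lie below the PBS libraries for MYC, MXD3, MLX and MGA and above them for MYCL, MAX and MXD4, and PBS replicate 1 is the highest library for MYC and the lowest for MXD4.

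MYC (ENSG00000136997.10, chromosome 8, 128747680 to 128753674) is the main growth-promoting member, and its level fell 2.02-fold in P-DXd-titled and 2.12-fold in the other treated xenografts. These coordinates, like those of the other members, are copied from the deposited tables, where no build is named. MYC was 367, 204 and 181 CPM in PBS replicates 1, 2 and 3. It was 147, 117 and 111 CPM in P-DXd-titled replicates and 134, 118 and 109 CPM in T-DXd-titled replicates. Each treated library was below each PBS library, and PBS replicate 1 was far above the other PBS libraries. The log2 fold change was -1.01 (SE 0.27, adjusted p 0.0285) in P-DXd-titled xenografts and -1.08 (SE 0.27, adjusted p 0.0180) in the T-DXd-titled group, and -1.06 (SE 0.19, adjusted p 0.00101) with both. Without PBS replicate 1 these were -0.63 (adjusted p 0.00492), -0.69 (adjusted p 9.02e-06) and -0.66 (adjusted p 0.000191), still past both thresholds and smaller. Leaving out any P-DXd-titled library lost the call in that comparison (adjusted p 0.0587 to 0.107), and leaving out any T-DXd-titled library lost it in the other (0.0532 to 0.0767), while the call with both held in all 9 cases. Proliferation markers moved with MYC: 6 of 6 were called lower with both conjugates, where 17.1% of all genes were called lower. Their summed level was 1487 CPM in PBS replicate 1, 982 and 899 CPM in the other PBS libraries and 247 to 332 CPM in treated libraries. Their part in the MYC result was not tested. In bulk tissue, fewer cells of a type and less RNA per cell cannot be told apart.

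MYCN and MYCL are the other growth-promoting members, usually restricted to neural, lung or blood cell types. MYCN (ENSG00000134323.10, chromosome 2, 16080686 to 16087129) was near 0, with 11, 17 and 7 counts in PBS, 1, 3 and 5 in P-DXd-titled replicates and 18, 0 and 0 in the T-DXd-titled group, and was not tested. The counts of 0 allow up to 0.0406 and 0.0459 CPM by counting error. MYCL (ENSG00000116990.9, chromosome 1, 40361098 to 40367928) rose from a low level. It was 1.44, 1.15 and 1.197 CPM in PBS, 2.82, 2.22 and 5.11 CPM in P-DXd-titled replicates and 5.64, 5.82 and 5.51 CPM in the T-DXd-titled group. All treated libraries were above all PBS libraries, and the P-DXd-titled libraries were spread more widely than the T-DXd-titled ones. Log2 fold changes were 1.42 (SE 0.36, adjusted p 0.0226), 2.15 (SE 0.19, adjusted p 0.000634) and, with both, 1.82 (SE 0.34, adjusted p 0.00105). Without PBS replicate 1 they were 1.52, 2.26 and 1.94, all called. In P-DXd-titled xenografts the call was lost without PBS replicate 2 (adjusted p 0.0766), PBS replicate 3 (0.0540), P-DXd-titled replicate 1 (0.0503) or P-DXd-titled replicate 3 (0.0736, log2 fold change 1.00).

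Markers of macrophages, which in a xenograft come from the host, were examined beside MYCL and did not all move the same way. Of 11 macrophage markers 6 were listed, and their sum was 4.94 to 7.59 CPM in PBS and 9.08 to 20.4 CPM in treated libraries. Of the 5 tested, CSF1R, AIF1 and C1QB were higher, ADGRE1 was lower and CD14 was not called (log2 fold change 0.67, adjusted p 0.187). CSF1R was the largest part of the sum, at means of 2.65, 7.90 and 11.7 CPM in PBS, P-DXd-titled and T-DXd-titled libraries. CD68 was at 0.122 CPM or less in every library. Of 10 fibroblast markers, 6 were higher, with a sum of 1061 to 2032 CPM in PBS and 1265 to 2272 CPM in treated libraries. Of 6 endothelial markers, 1 was higher (6.34 to 12.6 and 8.46 to 13.3 CPM). These marker calls are with both conjugates, where 15.2% of all genes were called higher and 17.1% lower. The part of host cells in the MYCL result was not tested. The genes whose centered log2 CPM followed MYCL most closely over the 9 libraries were ACP5 and TMEFF2, with root mean square differences of 0.23 and 0.29. For MYC they were UBE3D and JAG1, with 0.105 and 0.106, among 12471 genes compared. The differences for MYC and MYCL cannot be set against each other, because MYCL had 120 to 430 counts per library and MYC 6337 to 32967.

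MAX (ENSG00000125952.14, chromosome 14, 65472892 to 65569413) is the shared partner. It was 118, 111 and 117 CPM in PBS, 137, 135 and 141 CPM in P-DXd-titled replicates and 135, 142 and 138 CPM in the T-DXd-titled group. The treated libraries were above PBS without overlap, by a small margin, so MAX did not fall with MYC. Log2 fold changes were 0.25 (SE 0.09, adjusted p 0.0627), 0.24 (SE 0.07, adjusted p 0.0353) and, with both, 0.24 (SE 0.06, adjusted p 0.00466), all under the fold minimum. The values were 0.26, 0.27 and 0.27 without PBS replicate 1. MAX overlaps FNTB in the tables, so its counts are uncertain where both genes claim a read. FNTB had a log2 fold change of 0.14 (adjusted p 0.163).

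**Figure D2:**
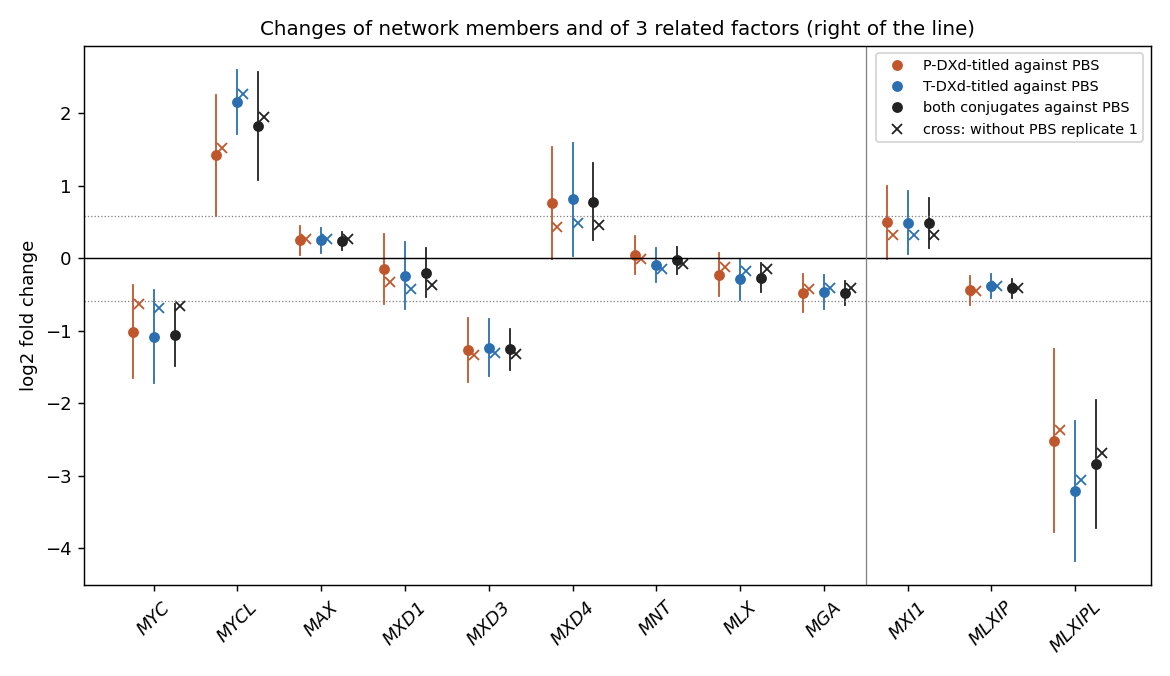
Log2 fold change (y axis) against PBS for the 9 members tested and for MXI1, MLXIP and MLXIPL (x axis), in P-DXd-titled, T-DXd-titled and both conjugates, with 95% confidence intervals, dotted lines at 1.5-fold and crosses for the fit without PBS replicate 1. The crosses move toward 0 for MYC and MXD4 and stay near the points for MYCL, MAX, MXD3 and MGA.

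The repressor partners of MAX went separate ways, with MXD3 lower, MXD4 higher and MXD1 and MNT overlapping PBS. MXD3 (ENSG00000213347.6, chromosome 5, 176728462 to 176739758) is the MXD protein best known from dividing cells. It was 6.90, 8.77 and 7.68 CPM in PBS, 3.46, 3.36 and 2.93 CPM in P-DXd-titled replicates and 3.66, 3.30 and 3.09 CPM in the T-DXd-titled group. All treated libraries were low and the PBS libraries did not overlap them. Log2 fold changes were -1.27 (SE 0.19, adjusted p 0.00440), -1.23 (SE 0.17, adjusted p 0.00220) and, with both, -1.26 (SE 0.13, adjusted p 2.61e-05). These calls held with each library left out, and without PBS replicate 1 the values were -1.34, -1.31 and -1.32. MXD3 overlaps PRELID1 and RAB24 in the tables; their log2 fold changes with both conjugates were -0.15 (adjusted p 0.0765) and -0.03 (adjusted p 0.864). The genes closest in pattern to MXD3 were CEP192 and C15orf52, with root mean square differences of 0.0852 and 0.101.

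MXD4 (ENSG00000123933.10, chromosome 4, 2249159 to 2264021), the MXD protein linked to resting and differentiated cells, was the most abundant of the repressors. It was 31.0, 80.1 and 82.1 CPM in PBS, 104.4, 109.6 and 113 CPM in P-DXd-titled replicates and 113, 114 and 115 CPM in the T-DXd-titled group. The treated libraries lay above PBS, and PBS replicate 1 was far below the other PBS libraries. Log2 fold changes were 0.76 (SE 0.33, adjusted p 0.112) and 0.81 (SE 0.33, adjusted p 0.0867), neither called, and 0.78 (SE 0.24, adjusted p 0.0181) with both, which was called. Without PBS replicate 1 the call was lost because the fold fell under 1.5: the values were 0.42 (adjusted p 0.00351), 0.48 (adjusted p 1.6e-05) and 0.46 (adjusted p 5.35e-05). MNT and MLX, which also hold the E-box printed above, gave no call.

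MXD1 and MNT gave no call. MXD1 (ENSG00000059728.6, chromosome 2, 70124820 to 70170077), induced in differentiating cells, was 26.3 ± 6.45 CPM in PBS, 23.8 ± 3.60 CPM in P-DXd-titled xenografts and 22.5 ± 2.92 CPM in the T-DXd-titled group. Its log2 fold change with both was -0.20 (95% confidence interval -0.54 to 0.14, adjusted p 0.280), and PBS replicate 1, at 19.1 CPM, was its lowest library. Without that library the value was -0.38 (adjusted p 0.0167), under the fold minimum. MXD1 overlaps SNRNP27 and AC019206.1 in the tables; SNRNP27 had 0.28 (adjusted p 0.0197). MNT (ENSG00000070444.10, chromosome 17, 2287354 to 2304412), the repressor expressed in most cells, was 21.6 ± 1.69, 22.4 ± 1.08 and 20.6 ± 0.667 CPM in PBS, then P-DXd-titled, then T-DXd-titled xenografts. With both, its log2 fold change was -0.03 (95% confidence interval -0.21 to 0.15, adjusted p 0.765).

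MLX and MGA, which link the network to other partners, were lower by small amounts. MLX (ENSG00000108788.7, chromosome 17, 40719086 to 40725257) was 44.03, 37.3 and 34.5 CPM in PBS, 34.5, 31.1 and 33.8 CPM in P-DXd-titled replicates and 31.6, 30.3 and 33.9 CPM in the T-DXd-titled group. The groups were separate by a narrow gap, with the lowest PBS and the highest treated library nearly equal, and the log2 fold change with both was -0.27 (SE 0.09, adjusted p 0.0246). Without PBS replicate 1 it was -0.15 (adjusted p 0.106). MLX overlaps PSMC3IP, which had -1.23 (adjusted p 0.000560), so its counts are uncertain. MGA (ENSG00000174197.12, chromosome 15, 41913422 to 42062141) was 56.6, 53.9 and 47.6 CPM in PBS, 39.3, 34.97 and 39.7 CPM in P-DXd-titled replicates and 40.8, 37.4 and 37.5 CPM in the T-DXd-titled group. No treated library reached the PBS range. Log2 fold changes were -0.48 (SE 0.11, adjusted p 0.0171), -0.47 (SE 0.10, adjusted p 0.0102) and, with both, -0.48 (SE 0.08, adjusted p 0.000421), under the fold minimum, and without PBS replicate 1 -0.42, -0.41 and -0.41.

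The libraries of 7 of the 9 members tested did not overlap between PBS and P-DXd-titled xenografts, where 55.4% of all genes did not overlap. The same 7 members were separate in T-DXd-titled xenografts, where 61.3% of all genes were, and with all 6 treated libraries, where 50.6% were.

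Direct comparison of the groups tested whether the network differed between the P-DXd-titled group and the T-DXd-titled group. No member was called by edgeR, where 0.0273% of all genes were called, and DESeq2 called none of the members either. At an unadjusted p at or below 0.05, 1 member (MYCL) passed, where 3.69% of all genes did. MYCL was lower in P-DXd-titled libraries by a log2 difference of -0.74 (95% confidence interval -1.34 to -0.14, adjusted p 1.00), with no overlap. MNT was the other member without overlap (0.12, 95% confidence interval -0.06 to 0.30), and 8.07% of all genes had none. For MYC the difference was 0.06 (95% confidence interval -0.19 to 0.30), for MXD3 -0.04 (-0.43 to 0.34) and for MXD4 -0.06 (-0.21 to 0.08). These intervals do not show that the groups were alike.

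To compare levels between genes, CPM was divided by the length of the canonical transcript of GENCODE v44 in kb. In PBS, MYC (67.4 CPM per kb) and MAX (57.4) were the highest, and their order was not the same in each library. MXD4 (16.6) and MLX (16.4) followed and did not differ beyond their spread, then MXD3 (7.29), MXD1 (4.74), MNT (4.39) and MGA (4.32), the last 3 within their spread. MYCL (0.358) and MYCN (0.0404) were lowest. In treated xenografts MAX led on this scale, at 68.4 and 68.9 CPM per kb in the P-DXd-titled and T-DXd-titled groups. MYC (33.6 and 32.3) and MXD4 (28.2 and 29.5) then stood close to each other. The order depends on the lengths used. Per kb of all exons, MYC (41.1) was above MAX (18.4) in PBS, in each library, and MXD3 (1.64) was below MXD1 (4.14), MGA (2.62) and MNT (2.49). On that scale MAX (22.0 and 22.1) and MYC (20.5 and 19.7) were close in treated xenografts, with MAX below the MYC family in P-DXd-titled replicate 1 and T-DXd-titled replicate 1 (ratios of 0.891 and 0.935).

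The summed level of MXD1, MXD3, MXD4 and MNT was set against that of MYC, MYCN and MYCL. The ratio was 0.221, 0.697 and 0.790 in PBS replicates. It was 0.983 to 1.29 in P-DXd-titled libraries and 1.104 to 1.301 in the T-DXd-titled group. All treated libraries were above all PBS libraries, with group means of 0.569 ± 0.305, 1.17 ± 0.167 and 1.21 ± 0.0994. No p is given, as the members were chosen with earlier results known. With the length of all exons instead, means were 0.501, 1.095 and 1.12. The share of MXD4 in the summed repressors was 48.3% ± 10.2 in PBS, 70.3% ± 2.23 in P-DXd-titled xenografts and 72.2% ± 1.76 in the T-DXd-titled group, and MYC made up 99.4%, 97.1% and 95.2% of the MYC family. MXI1, a further MXD protein that is not in the sum, was at 4.07, 5.75 and 5.78 CPM per kb in these groups. The ratio of MAX to the MYC family was 0.927 ± 0.305, 2.00 ± 0.277 and 2.04 ± 0.226, a level that depends on the lengths used: with all exons it was 0.488, 1.05 and 1.07.

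**Figure D3:**
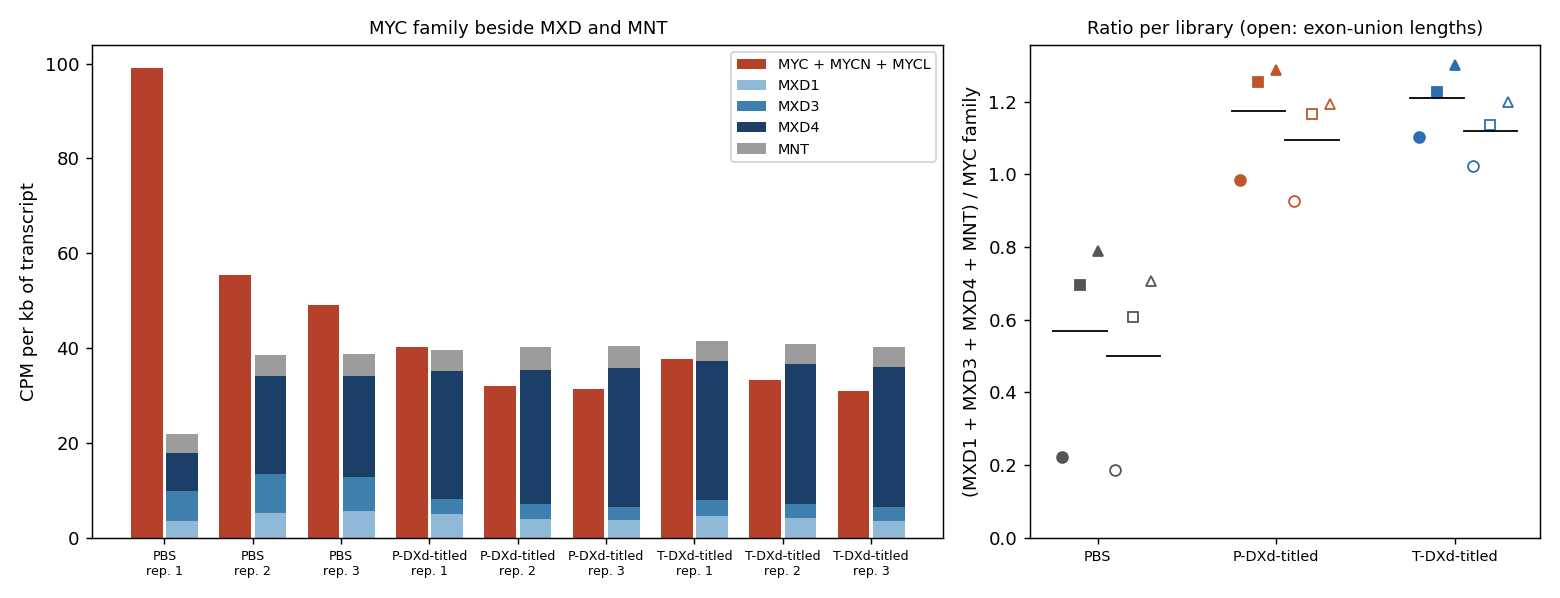
Left, summed CPM per kb of transcript (y axis, from 0) of the MYC family (red) beside stacked MXD1, MXD3, MXD4 and MNT in each of 9 libraries. Right, the ratio of the stacked sum to the MYC family (y axis, from 0) with canonical (filled) or exon-union (open) lengths and bars at group means; each treated library lies above each PBS library, and PBS replicate 1 is lowest at 0.221.

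Of 3 related factors, MXI1 is a further MXD protein, and MLXIP and MLXIPL are partners of MLX. MXI1 was 14.1 ± 3.46 CPM in PBS, 20.0 ± 3.46 CPM in P-DXd-titled xenografts and 20.0 ± 1.23 CPM in the T-DXd-titled group, and was higher with both by a log2 fold change of 0.48 (adjusted p 0.0204), under the fold minimum, though without PBS replicate 3 it was called (0.64). MLXIP was 126 ± 2.09, 93.3 ± 3.08 and 98.0 ± 2.58 CPM, with -0.42 (adjusted p 0.000162), also under it. MLXIPL fell from a low level: it was 1.96, 2.00 and 0.966 CPM in PBS, 0.120, 0.406 and 0.351 CPM in P-DXd-titled replicates and 0.207, 0.189 and 0.138 CPM in the T-DXd-titled group. Its log2 fold changes were -2.52 (adjusted p 0.0133), -3.21 (adjusted p 0.00189) and -2.84 (adjusted p 0.000199), and without P-DXd-titled replicate 3 the first call was lost (adjusted p 0.0526). They were -2.38, -3.06 and -2.68 without PBS replicate 1, all called.

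Genes that act on MYC or with the network were examined as lists, each described by its count and by its median log2 fold change with both conjugates, beside -0.01 over all genes. In these counts 17.1% of all genes were called lower and 15.2% higher. Of 17 genes that set MYC protein turnover, 4 were lower and 2 higher (median -0.15). AURKA, a mitotic kinase that also stabilizes MYC proteins, was 117 ± 37.5 CPM in PBS, 25.5 ± 4.77 CPM in P-DXd-titled libraries and 19.4 ± 1.98 CPM in T-DXd-titled libraries, a log2 fold change of -2.41. CIP2A, which shields MYC from phosphatase PP2A, was 65.4 ± 14.6, 18.2 ± 3.08 and 15.3 ± 1.31 CPM (-1.99). The others, named after their values were seen, were SKP2 (-1.76) and USP28 (-0.60), lower, and FBXO32 (0.93) and PIM1 (0.63), higher. FBXO32 was called in neither single comparison, PIM1 only in P-DXd-titled and USP28 only in T-DXd-titled xenografts. What these changes meant for MYC protein was not tested. When PBS replicate 1 was left out, 4 were lower and 0 higher.

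Of 18 genes of the SIN3 and NCOR corepressors, 4 were lower and none higher (median -0.11), a share of 22.2%. HDAC1, a histone deacetylase of SIN3 complexes, was 214 ± 40.4, 129 ± 16.9 and 126 ± 2.94 CPM in PBS, then P-DXd-titled, then T-DXd-titled xenografts (-0.77), and without PBS replicate 1 the fold was under 1.5 (-0.58). SAP30, a SIN3 subunit, was 11.5 ± 2.85, 5.88 ± 0.663 and 5.92 ± 0.651 CPM (-0.98). When PBS replicate 1 was left out, 2 of the 18 were lower.

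Of 17 coactivators, 6 were lower and none higher (median -0.25), a share of 35.3%. TRRAP, the scaffold through which MYC recruits acetylases, was 180, 194 and 179 CPM in PBS, 120, 113 and 115 CPM in P-DXd-titled replicates and 113, 106 and 105 CPM in the T-DXd-titled group, where PBS replicate 1 did not stand apart. Its log2 fold change was -0.74 (adjusted p 9.48e-06). EP400, a chromatin remodeler bound to TRRAP, was 97.8 ± 2.92, 59.9 ± 2.90 and 55.9 ± 1.42 CPM (-0.78). Leaving out PBS replicate 1 gave 3 coactivators lower and 1 higher.

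Of 10 partners of MGA in PRC1.6, 3 were lower and none higher (median 0.18). TFDP1, the DNA-binding partner of E2F6, was 320 ± 78.0, 139 ± 10.7 and 123 ± 5.81 CPM (-1.31). PCGF6, the subunit that defines the complex, was 21.9 ± 7.08, 11.9 ± 1.12 and 11.7 ± 0.769 CPM (-0.92); under the block on a digit of the animal code its call in T-DXd-titled xenografts was lost (adjusted p 0.0525). CBX3, named after its values were seen, was the other. Of 13 germline genes that PRC1.6 silences, 8 were listed and 7 tested, and 1 was called, SYCE2, lower with both conjugates (1.34, 0.850 and 0.832 CPM, adjusted p 0.0466; named after its values were seen). It was called in neither single comparison, and without PBS replicate 1 none of the 7 was called.

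Among 5 lists of targets that MYC activates, the share of genes called lower ranged from 30.8% of translation factors to 69.2% of cell cycle targets, and 1 gene, PHGDH, was called higher. Of 38 nucleolar genes, which serve ribosome production, 19 were lower and none higher, and 38 of 38 had a negative value (median -0.59). The share called lower, 50%, stands beside 17.1% of all genes. LYAR, a nucleolar growth regulator, was 73.7, 50.0 and 44.2 CPM in PBS, 22.0, 26.4 and 21.3 CPM in P-DXd-titled replicates and 25.5, 23.4 and 21.2 CPM in the T-DXd-titled group (-1.28). TCOF1, which supports transcription of ribosomal DNA, was 204 ± 49.7, 89.4 ± 3.38 and 85.6 ± 0.947 CPM (-1.25). With PBS replicate 1 left out, 13 of the 38 were lower and none higher. PBS replicate 1 had the highest nucleolar level, 0.31 above the PBS mean in log2 CPM averaged over the list, and treated libraries were -0.61 to -0.55.

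Of 20 genes of nucleotide and polyamine synthesis, 12 were lower and none higher (median -0.63), and without PBS replicate 1, 7 were lower. PAICS, an enzyme of purine synthesis, was 508, 376 and 318 CPM in PBS, 164, 148 and 133 CPM in P-DXd-titled replicates and 135, 134 and 128 CPM in the T-DXd-titled group (-1.54). PFAS, of the same pathway, was 30.6 ± 16.9, 9.64 ± 2.13 and 9.85 ± 0.402 CPM (-1.68), and without PBS replicate 1 its value was -1.11. PFAS overlaps CTC1 in the tables, so its counts are uncertain. Of 22 genes of metabolism and mitochondria, 9 were lower and 1 higher (median -0.47), and without PBS replicate 1, 4 were lower and 2 higher. LDHA, which makes lactate, was 2012, 1939 and 2079 CPM in PBS, 823, 654 and 762 CPM in P-DXd-titled replicates and 647, 695 and 740.1 CPM in the T-DXd-titled group, with PBS libraries close together (-1.50). HK2, the hexokinase of growing cells, was 89.2 ± 18.8, 37.6 ± 8.55 and 31.3 ± 3.47 CPM (-1.39). PBS replicates 1, 2 and 3 stood at 69.1, 92.2 and 106 CPM for HK2, lowest where MYC was highest. LDHA did not keep the order of MYC among the PBS libraries either, whereas PAICS did. What part MYC had in the falls of LDHA and HK2 was not tested. PHGDH, the first enzyme of serine synthesis, rose, from 183 ± 11.1 to 294 ± 42.7 and 298 ± 8.995 CPM (0.67).

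LYAR, LDHA and HK2 hold the E-box, and whether it had a part in their falls was not tested. Sites in front of these 3 named targets are printed with coordinates of GRCh38.p14 and CACGTG in capitals. They lie at chr4:4290068-4290097 on the minus strand for LYAR, at chr11:18394366-18394395 and chr11:18394464-18394493 on the plus strand for LDHA, and at chr2:74834964-74834993 and chr2:74835009-74835038 on the plus strand for HK2.
LYAR: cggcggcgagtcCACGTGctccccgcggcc
LDHA, first site: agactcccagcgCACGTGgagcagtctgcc
LDHA, other site: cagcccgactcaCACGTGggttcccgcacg
HK2, first site: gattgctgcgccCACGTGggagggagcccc
HK2, other site: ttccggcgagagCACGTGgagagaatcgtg
Over the 5 lists of activated targets, 34 of the 88 genes with a window held the motif (38.6%), against 8.77% of all 27305 genes with a window. That larger set is not limited to genes tested here, so the backgrounds are unlike. Lists of other genes also held it more often than all genes did: 41.7% of 12 germline targets of PRC1.6, 30.8% of 13 MYC-repressed genes, 28.6% of 7 MLX targets and 25% of 12 coactivators. Of the 88 activated targets with a window, 39 were called in both comparisons with PBS, and 16 of the 39 held the motif. Most of the called targets thus had no such letters in their window, as was so for all 88.

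Of 13 translation factors and tRNA synthetases, 4 were lower and none higher (median -0.35), and without PBS replicate 1, 2 were lower. EIF4EBP1, an inhibitor of translation, was 79.5 ± 7.23, 50.3 ± 4.67 and 46.1 ± 2.51 CPM (-0.74). EIF4A1, an RNA helicase of translation, was 12.8, 4.95 and 4.82 CPM in PBS and 0.687 to 1.55 CPM in treated libraries (-2.74), and without PBS replicate 1 its value was -2.09; it has a close relative and many processed copies in the genome, so its counts are uncertain. Of 14 cell cycle targets, 13 could be matched to a single listed gene (CKS1B named 2), and 9 were lower and none higher (median -1.08). CDC25A, a phosphatase that opens S phase, was 31.2 ± 10.2, 9.38 ± 1.69 and 9.01 ± 1.15 CPM (-1.78), and cyclin E, CCNE1, was 12.8 ± 3.73, 4.26 ± 1.15 and 4.01 ± 0.845 CPM (-1.65). With PBS replicate 1 left out, 8 were lower and none higher.

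Genes that MYC represses went mainly the other way: of 18, 8 were higher and 1 lower (median 0.50), a higher share than the 15.2% of all genes called higher. CEBPA, a differentiation factor, was 0.911 ± 0.301, 3.33 ± 0.988 and 3.43 ± 0.493 CPM (1.87), and HPGD, which breaks down prostaglandins, was 0.656, 2.98 and 0.727 CPM in PBS, 6.38 ± 2.25 CPM in P-DXd-titled xenografts and 6.27 ± 0.772 CPM in the T-DXd-titled group (2.09). Both genes were at low levels, and the part of host cells in their rises was not tested. For HPGD, PBS replicate 2 set the size of the change: without it the value was 3.16, and without PBS replicate 1 or 3 it was 1.76 or 1.77. Its calls in the single comparisons were lost without PBS replicate 3 or without any 1 treated library of that comparison (adjusted p up to 0.108 and 0.0874), while the call with both held in all 9 cases. NDRG1, a gene of growth arrest that hypoxia also induces, was the exception, at 496, 2071 and 2487 CPM in PBS, 228, 214 and 298 CPM in P-DXd-titled replicates and 269, 249 and 287 CPM in the T-DXd-titled group (-2.73). PBS replicate 1 was low among the PBS libraries for NDRG1 and still above each treated library. The counts with PBS replicate 1 left out were 8 higher and 1 lower.

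Of 9 targets of MLX with MLXIP or MLXIPL, 8 were tested, and 1 was higher and 1 lower (median -0.17). TXNIP, an inhibitor of glucose uptake, was 83.0, 150.04 and 201 CPM in PBS, 600.1, 494 and 647 CPM in P-DXd-titled replicates and 589, 551 and 550 CPM in the T-DXd-titled group (1.97, adjusted p 5.76e-05), with no overlap. ACACB, an acetyl-CoA carboxylase, was 11.9 ± 1.55, 6.77 ± 0.217 and 6.23 ± 0.187 CPM (-0.89). Leaving out PBS replicate 1 gave 1 higher and 2 lower. In each of these lists, no gene was called between the P-DXd-titled group and the T-DXd-titled group.

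**Figure D4:**
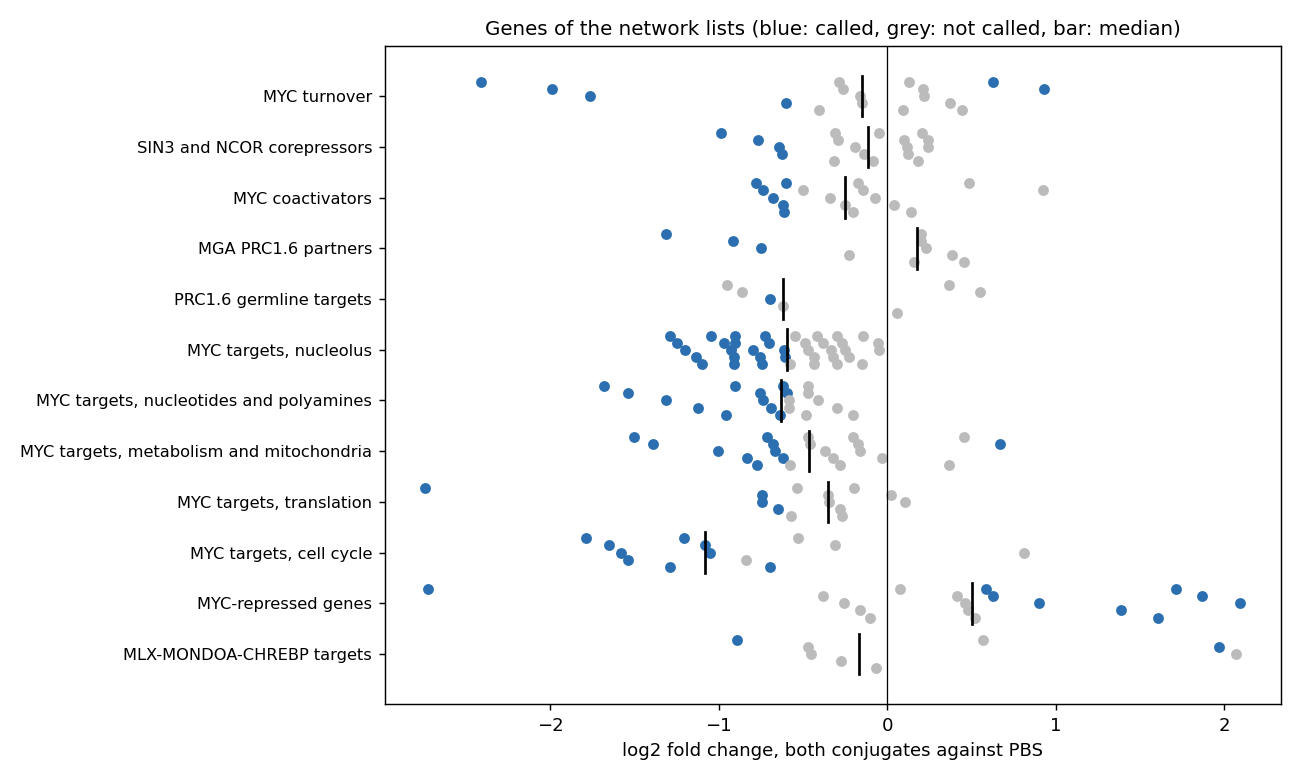
Log2 fold change of each tested gene with both conjugates against PBS (x axis) by list (y axis), blue where called, grey where not, with a bar at the list median. The nucleolar and nucleotide lists lie wholly below 0, the cell cycle list has the lowest median (-1.08), and NDRG1 is the blue point at -2.73 among MYC-repressed genes.

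**Figure D5:**
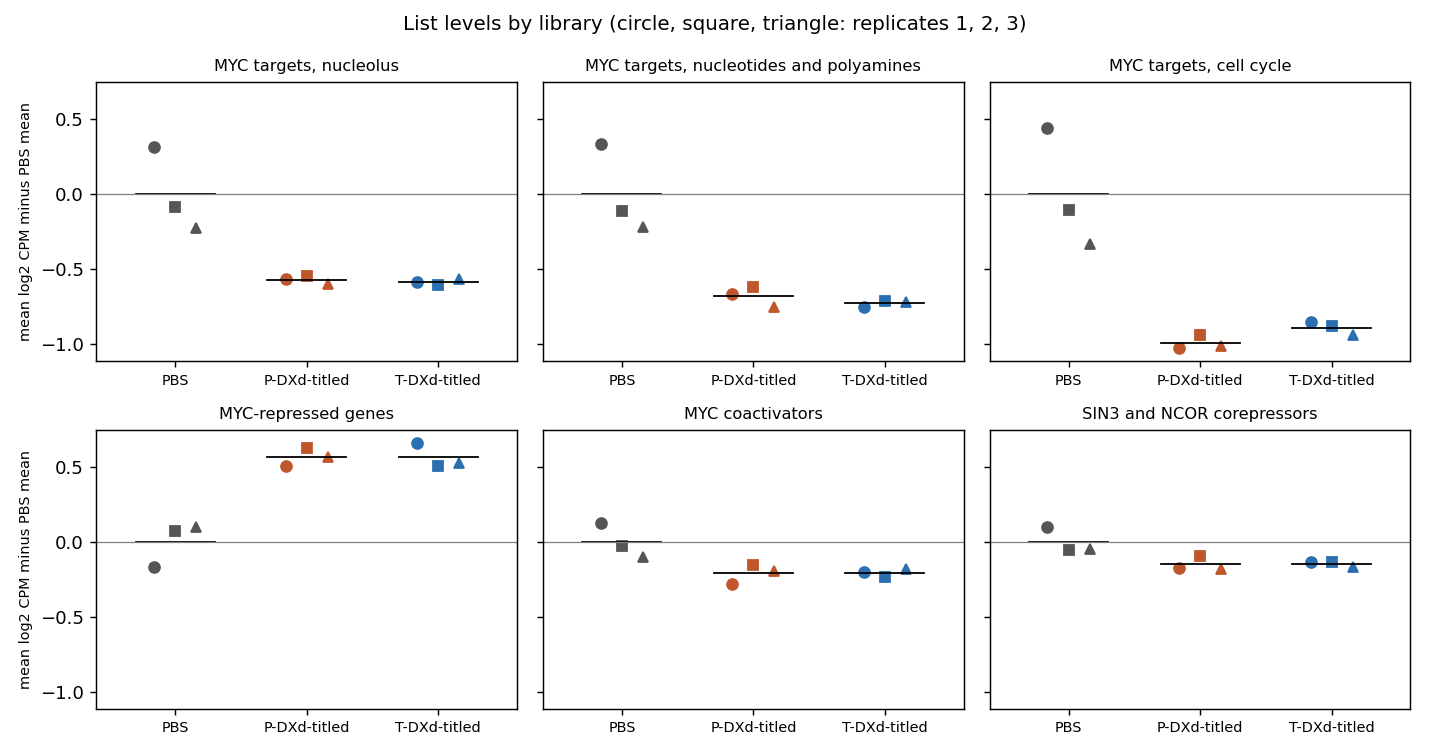
Mean log2 CPM of a list minus its PBS mean (y axis) for 6 lists in the 3 groups (x axis), with 1 point per library and bars at group means. PBS replicate 1 (circle) is the highest library in the target, coactivator and corepressor lists and the lowest for MYC-repressed genes. Treated libraries lie beyond all PBS libraries in all 6 lists, by a narrow gap for the coactivators and corepressors.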

How the data were processed

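The authors prepared TruSeq mRNA libraries from 9 xenografts and, per the submitters' processing notes and the study's methods, used Cutadapt for trimming, STAR for alignment and featureCounts for read counts of each gene. The deposited tables hold these raw counts, not normalized, for protein-coding genes. Removal of mouse reads and use of strand are not given in the sources used here. GRCh38.p13 is named, but the listed coordinates do not match GRCh38, so they are not mixed with the RefSeq windows of GRCh38.p14. There were 16098 and 16114 genes in the pairwise tables, with 16008 in both. Columns of per-sample values that went unused numbered 0.

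Groups follow the sample titles. edgeR 4.0.16 in R 4.3.3 was used with TMM scaling, its filterByExpr filter and a two-sided quasi-likelihood test. Each pairwise comparison was fitted on its 6 libraries, and both conjugates against PBS on all 9. CPM uses TMM-adjusted library sizes. With a change of 3-fold in 200 genes of simulated data, 72.5% were recovered with 3 libraries against 3 (14781 genes) and 87.5% with 6 against 3 (14917 genes). Of the unchanged genes, 10 and 7 were called. In the data, 25% (P-DXd-titled) and 32.2% (both) of genes were called, a far larger share than was changed in the simulation. The recovery therefore need not hold for them. No pair of replicates was a duplicate within sampling noise. Where replicates could share technical steps, p-values measure only the spread between these samples, and limits for counts of 0 cover counting error only, at 3 counts.

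Named genes were the 10 members, 3 related factors, up to 2 genes per list with the largest rise and up to 2 with the largest fall (called in the same direction in both comparisons with PBS, mean of at least 100 counts), and the 2 genes closest in pattern to MYC and to each member called in both comparisons. The members and lists were chosen with earlier results of these data known. Some marker genes are not reported here. Alternatives were DESeq2 1.42.0, RLE factors, no filter, a minimum of 10 counts per library, no fold minimum, glmTreat, 1 fit of all 9 libraries, a block on a digit of the animal code, and leaving out each library.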

Additional observations from a re-analysis of the deposited data

Results flagged for a closer look

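MYCN in T-DXd-titled replicate 1 was 0.249 CPM, far from the other 5 treated libraries, by a gap of 0.693 of the range over the 6 treated libraries, past the 95% limit of Dixon's test. It rested on 18 counts. Of 13 genes examined in this way 1 was singled out, where chance singles out about 1 in 20.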

How the results depend on the processing

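Under glmTreat, which tests against a fold of 1.5, calls among all genes were 1130 (P-DXd-titled), 1696 (T-DXd-titled), 2536 (both) and 1 (direct comparison of the conjugates), and 1 member was called in P-DXd-titled xenografts. With no fold minimum, both conjugates gave 8398 genes and 7 members, and T-DXd-titled xenografts 5 members. Between the conjugates, DESeq2 called 24 genes and 1 fit of all 9 libraries 0. Leaving out 1 library gave 1857 to 3936 genes and 1 to 3 members in P-DXd-titled xenografts, 2820 to 4641 genes in T-DXd-titled xenografts, and 0 to 8 genes between the conjugates. The replicate numbers pair no samples, and a block on a digit of the animal code turned 2 small differences between conjugates, MYC (-0.022) and MAX (0.0087). With a library left out, the difference between conjugates ranged from -0.073 to 0.14 for MYC, -0.028 to 0.012 for MAX, -0.046 to 0.17 for MXD1, -0.098 to 0.025 for MXD3, -0.057 to 0.033 for MGA and -0.15 to 0.087 for MXI1, and MNT ranged from -0.017 to 0.074 in P-DXd-titled xenografts and from -0.078 to 0.011 with both, so these signs are not fixed. Of 1582 alternative values of named genes in comparisons with PBS, 1501 kept sign and call, 65 lost a call, 14 gained one and 2 turned sign. MXD4 was called in T-DXd-titled xenografts by DESeq2 (adjusted p 0.0324) and by 1 fit of all 9 libraries (0.0404), and lost its call with both under glmTreat (0.298). MYC lost its calls in the single comparisons under glmTreat (0.179 and 0.119), and MYCL in P-DXd-titled xenografts (0.104). Of 754 alternative list counts, 86 moved by over 1.5 times, mostly under glmTreat (26), no fold minimum (21) or a library left out (34). The causes were not tested. RLE factors moved the median of all genes by less than 0.1 in log2. Depth limits MYCN, at 18 counts or fewer.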
